A study of Mus musculus and Rattus norvegicus with 53 samples.

Results

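In the days after a sciatic nerve is cut, some genes of the distal stump are higher at day 1 or day 2 than in intact nerves and than from day 4 on. A set of 150 such genes was taken from a time course of Schwann cells (SCs) sorted from single mouse nerves. Each gene was scored as the log2 ratio of its higher median at day 1 or day 2 to the highest of its medians in intact nerves and in the stumps of day 4 and later, in CPM (a gene's counts per 1000000 counts on genes) with 5 CPM added to both sides. Of the 24016 mouse genes counted, 13639 had at least 1 count in 4 or more of the 6 libraries of days 1 and 2, and the 150 genes with the highest scores, 1.1% of these, were kept. Scores ran from 4.31 for Serpinb2 to 1.19 for Snrpg, with a median of 1.504. A return to the intact level was not required. The member Spp1 had medians of 1291 to 2650 CPM at days 4 to 10, against 345 in intact nerves. The members just inside the limit, beside Snrpg, were Radil and Ppa1 at 1.20 and Flt4 and Stat4 at 1.19. Just outside it lay Rpl27 and Ran at 1.19, Mmp12 at 1.18 and Hspb8 and Shh at 1.17. The intact and distal libraries of the time course chose the members, so their values are given as a description and carry no test.

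A cut nerve segment that has lost contact with its cell bodies undergoes Wallerian degeneration. Its SCs give up myelin and axon contact and turn into repair cells, and the stump releases chemokines, cytokines and proteases while neutrophils, then monocytes and macrophages, enter it. The plasminogen system and the matrix metalloproteinases take part in this early phase, and the cells re-enter the cell cycle shortly after it.

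SCs were sorted from mice in which a Cre transgene of the neural crest lineage switches on tdTomato from the Rosa26 locus, so that every group carries the same reporter, and tdTomato marks cells in which that Cre was once active. The sciatic nerve was transected at 6 to 8 weeks of age in males and females, and the contralateral nerve served as intact nerve (iSCs). Single-nerve libraries were made from 5 intact nerves, from 3 distal stumps (dSCs) at day 1, at day 2 and on every second day from day 4 to day 10, and from 3 bridges (bSCs), the new tissue between the stumps, on the same days from day 4. No bridge library belongs to day 1 or day 2. In a separate experiment the nerves of 3 mice were pooled per library, with 4 libraries each of intact nerve, distal stump and bridge at day 6.

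Counts on genes lay between 9240883 and 22426128 per single-nerve library and between 11435463 and 22617054 per pooled library. The 8 SC lineage markers used, among them Sox10, Erbb3 and S100b, were detected in every group, and their sum was 584 to 2412 CPM in intact nerves, 186 to 982 at day 1 and 117 to 519 at day 2. Markers of other cells were present as well. The sum of 9 fibroblast markers was 11570.0 to 42080.0 CPM at day 1 and 6417 to 27480.0 at day 2, against 15640.0 to 36060.0 in intact nerves, and that of 17 macrophage and monocyte markers, none of them a member, was 3459 to 7757 at day 1, 2835 to 8871 at day 2 and 367 to 1623 in intact nerves. In bulk libraries fewer cells of a type and less RNA per cell cannot be told apart.

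Several libraries stood apart. Day 1 replicate 1 and day 2 replicate 0 had 11138 and 10306 genes detected, against 14352 to 15815 in the other early libraries. The highest early value lay in these libraries for 27 and 31 of the 150 members, 58 together, and in day 1 replicate 2 for 44. Without the first pair 93 of the 150 genes would still have been chosen. Among the 145 members with a coding transcript, 31 (21.4%) had a longest transcript under 1000 bases, against 5.6% of all eligible genes, and 25 of these 31 were highest in one of those 2 libraries. The highest early library was not counted over all eligible genes, so nothing is read from the 58 or the 25 members. Whether transcript length bears on the choice of these members was not tested. The bridge and the distal stump library of day 4, replicate 1, both from the same mouse, gave nearly the same counts, with a chi-square per gene of 3.96 and a correlation of log2 CPM of 0.996, whereas 10 other bridge and distal pairs from one mouse had a chi-square per gene of at least 119.0. That bridge library is therefore not independent of the choice of members, and values of the bridge at day 4 that rest on it are given with and without it.

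The peak was at day 1 for 99 members and at day 2 for 51. For 30 of the 150 members, every library of the peak day lay above every intact library and every distal library of days 4 to 10. Over all eligible genes this held for 0.719%, and since the same libraries chose the members, nothing is read from the difference. Of the 30, 9 were secreted signals, proteases or receptors, 9 leukocyte genes, 7 genes of translation, RNA, DNA and mitochondria and 3 enzymes, and the others were Gjb1 and Ly6a. The members were grouped by what their products are known to do, after their values had been seen. Of the 22 contractile smooth muscle genes 21 peaked at day 1, as did 20 of the 25 myeloid and other leukocyte genes and all 10 interferon-inducible genes, whereas 18 of the 25 genes of translation, RNA, DNA and mitochondria and 12 of the 22 secreted signals, proteases and receptors peaked at day 2.

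**Figure D1:**
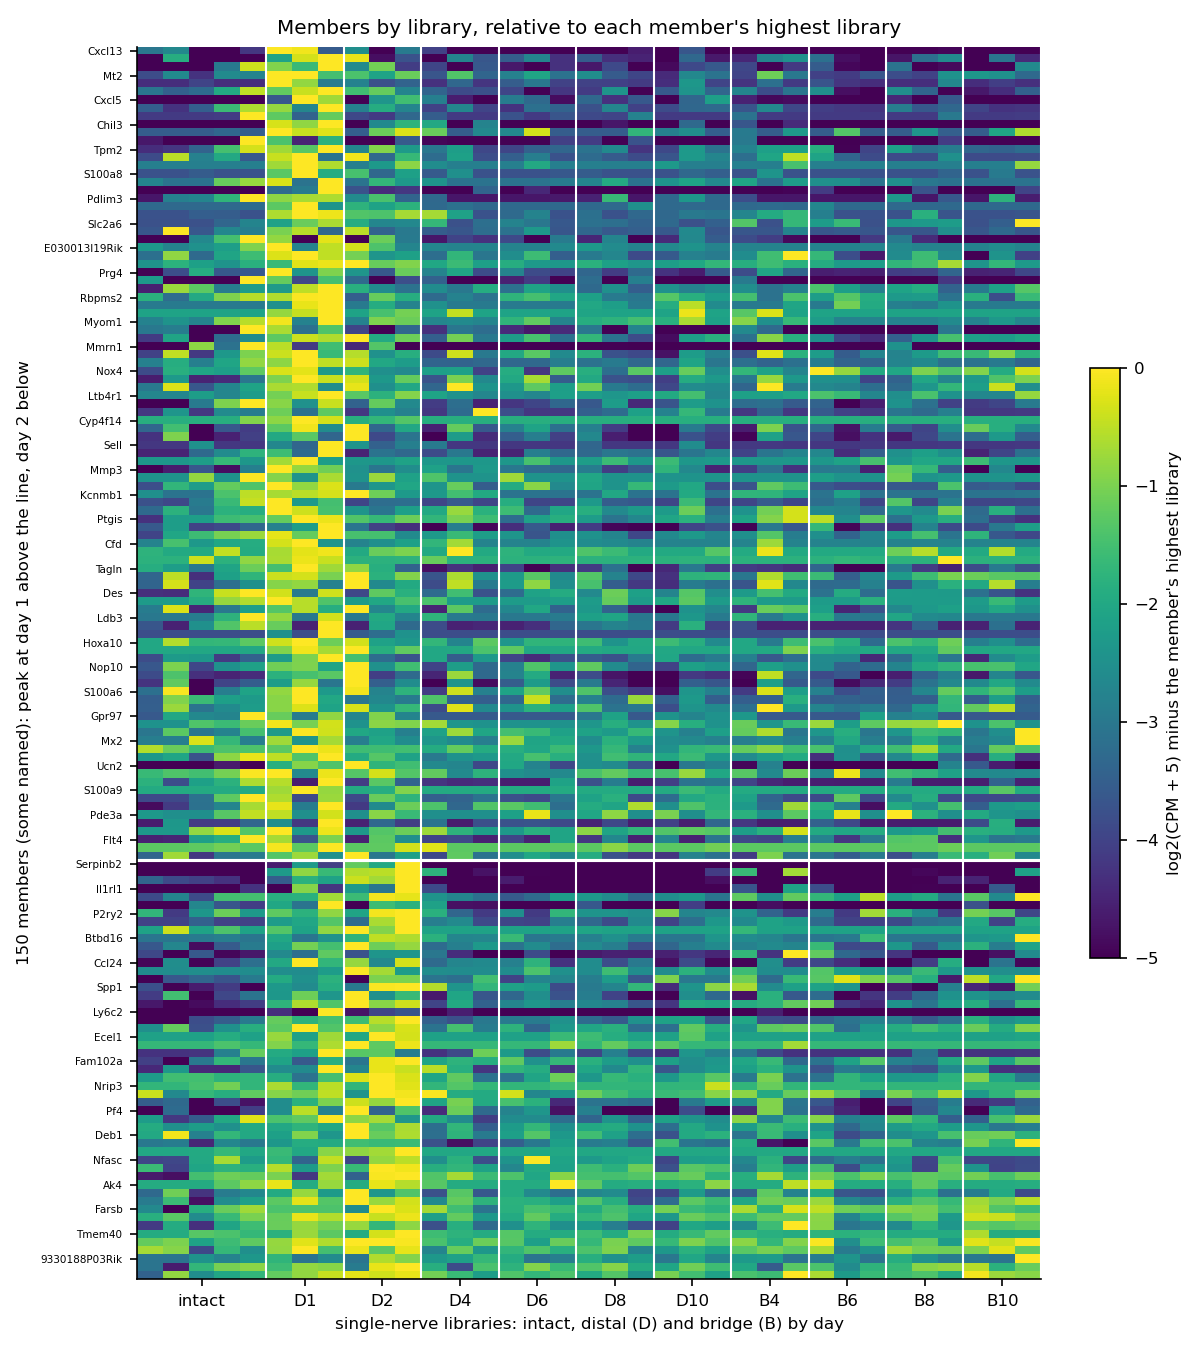
Each row is 1 of the 150 members and each column 1 of the 35 single-nerve libraries (intact, then distal D1 to D10, then bridge B4 to B10), coloured by log2(CPM + 5) minus the value in the member's highest library. The 99 members above the white line peak at day 1 and the 51 below it at day 2, and single libraries of other groups, such as the fifth intact library, are as bright for some of them.

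Serpinb2 led the list. It encodes plasminogen activator inhibitor 2, an inhibitor of urokinase. Serpinb2 was at 4.35, 41.7 and 8.67 CPM in the 3 libraries of day 1 and at 94.5, 52.2 and 222 CPM at day 2. In intact nerves it was at 0, 0, 0.0619, 0 and 0.109 CPM, and in the 12 distal libraries of days 4 to 10 at 0 to 0.166 CPM. All 6 early libraries lay above all of those, and day 2 lay above day 1 without overlap. Timp1, the tissue inhibitor of metalloproteinases, also had all 6 early libraries above the rest, but days 1 and 2 overlapped. Timp1 was at 199, 452 and 261 CPM at day 1, at 681, 366 and 521 at day 2, at 13.6 to 35 in intact nerves and at 31.5 to 177 at days 4 to 10. Mmp3, stromelysin 1, was instead highest at day 1, at 583, 335 and 273 CPM, and day 2, at 101, 65.97 and 94.97, already overlapped the later stumps, at 20.8 to 173. These 3 were the members among 23 eligible genes of the plasminogen system and the matrix proteases.

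In the list of 37 eligible cytokines and chemokines, 5 were members, all of them chemokines, and they did not share a day. Ccl24, Il7 and Mif, a chemokine and other cytokines, are members too but were not in that list. Cxcl13, which attracts B lymphocytes, was at 462, 426 and 34.6 CPM at day 1 and at 75.4, 2.15 and 54.98 at day 2. Its 2 high libraries of day 1 stood above all others, but the third lay within the range of intact nerves, 6.68 to 68.7 CPM. Cxcl5, a neutrophil attractant, was at 13.8, 231 and 138 CPM at day 1, at 0, 40.1 and 76.5 at day 2 and at 0 to 0.0582 in intact nerves, and the stumps of days 4 to 10 reached 47.4 CPM. Ppbp and Pf4, its neighbours on the chromosome, are chemokines known from platelets. Ppbp was at 15.5, 44.2 and 4.19 CPM at day 1 and 9.47, 6.29 and 9.32 at day 2. Pf4 was at 109, 470.1 and 93.2 CPM at day 1 and 673, 58.7 and 257 at day 2, with 2.79 to 66.01 in intact nerves and 6.46 to 307 at days 4 to 10. Cxcl14 was at 177, 117 and 144 CPM at day 1 and at 136, 282 and 409 at day 2, above the 3.46 to 49.1 of intact nerves and the 25.2 to 93.6 of days 4 to 10 in each of the 6 libraries.

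Receptors and other secreted signals did not share a day either. Il1rl1, Tnfrsf12a, Hbegf and Spp1 had their higher median at day 2, and Ucn2 and Saa3 at day 1. Il1rl1, the receptor of interleukin 33, was at 2.59, 158 and 11.3 CPM at day 1 and at 56.1, 31.9 and 299 at day 2, against 0 to 10.9 in intact nerves, so that the replicates of 1 day differed more than the medians of days 1 and 2. Tnfrsf12a, the receptor of the cytokine TWEAK, was more even, at 85.4, 194 and 140.3 CPM at day 1, 406, 186 and 234 at day 2, 9.41 to 57.7 in intact nerves and 24.6 to 77.6 at days 4 to 10. Hbegf, a ligand of the EGF receptor, was at 100.5, 139 and 136 CPM at day 1 and at 183, 173 and 174 at day 2. All 6 lay above the intact nerves, at 19.6 to 78.1 CPM, yet 1 library of day 10 reached 185 CPM. Ucn2, the peptide urocortin 2, was at 101, 198 and 141 CPM at day 1 and at 375, 109 and 126 at day 2 and was close to absent in intact nerves, at 0, 0, 0, 10.2 and 0.0543 CPM. It remained at 1.56 to 87.96 CPM in the later stumps. Spp1, or osteopontin, was at 1084, 8407 and 8637 CPM at day 2, with 2 of the 3 libraries above all others, against 1709, 1428 and 2325 at day 1 and 156 to 625 in intact nerves, but 1 library of day 4 was at 5758 CPM. Saa3, an acute phase protein, was at 96.3, 53.2 and 8.67 CPM at day 1 and at 0, 0, 1.49, 0 and 0 in intact nerves, and the lowest library of day 1 lay within the later stumps, at 0 to 14.7. Summed over all 22 secreted signals, proteases and receptors, the level was 602 to 1021 (median 801) CPM in intact nerves, 4404 to 5135 (median 4785) at day 1, 5206 to 13555 (median 11238) at day 2 and 1057 to 6775 (median 3129) at days 4 to 10.

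**Figure D2:**
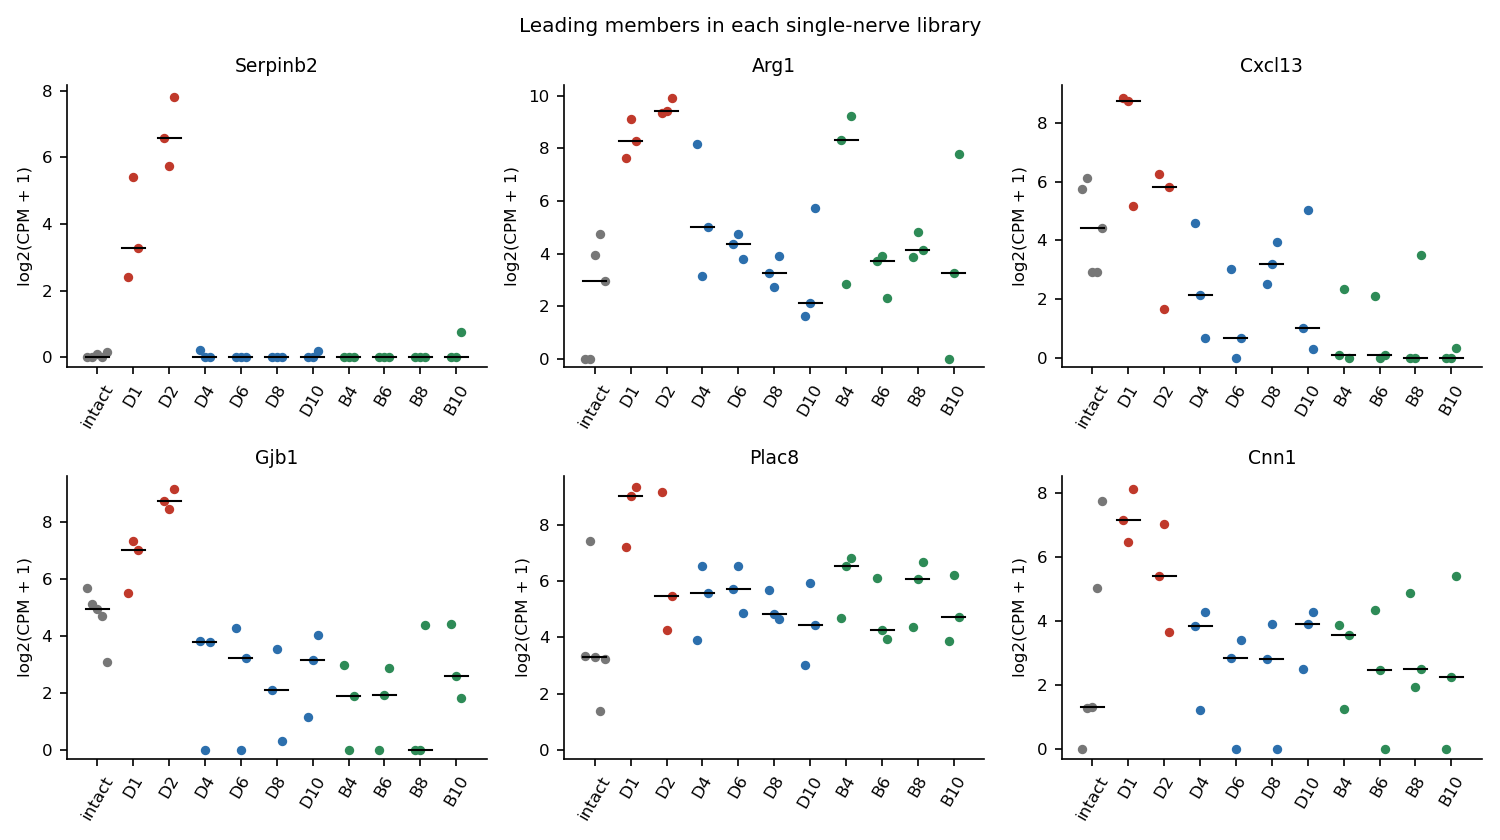
Points are single libraries and bars medians of 6 leading members, in log2(CPM + 1), for intact nerves, distal stumps (D) and bridges (B) by day. Serpinb2 and Gjb1 are highest in the 3 libraries of day 2 and Cxcl13 in 2 of the 3 of day 1, while Arg1 at day 4 and Cnn1 in intact nerves each have a library inside the early range.

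Arg1 had the second highest score. It encodes arginase 1, which splits arginine into ornithine and urea, and is widely used as a marker of macrophages in repair. Arg1 was at 198, 547 and 309.8 CPM at day 1 and at 649, 676 and 974 at day 2, against 0, 0, 14.4, 25.7 and 6.73 in intact nerves. At day 4 it was at 283, 7.88 and 31.2 CPM, with 1 library inside the range of day 1, and at day 10 at 2.08, 3.36 and 51.8. The lactate carrier Slc16a3 was at 30.97, 20 and 91.5 CPM at day 1 and 12.1, 38.1 and 38.6 at day 2, against 0 to 13.6 in intact nerves, and was the only member among 26 eligible genes of hypoxia and glycolysis. Mthfd2, a mitochondrial enzyme of folate metabolism that is induced in the amino acid response, was at 15.3, 15.7 and 40.6 CPM at day 1, 19.3, 64.6 and 59.5 at day 2 and 0 to 21.1 in intact nerves, and was the only member among 35 genes of the integrated stress and unfolded protein response.

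Gjb1 was the leading gene of axon-glia contact and junctions. It encodes connexin 32, which forms gap junctions through the layers of myelin. Gjb1 was at 44.9, 158 and 127 CPM at day 1 and at 427, 347 and 566 at day 2. It was at 49.6, 33.7, 29.6, 24.7 and 7.43 CPM in intact nerves and at 0 to 18.2 at days 4 to 10, so that the 3 libraries of day 2 stood clear of all other single-nerve libraries. None of 13 genes of myelin and its regulators was a member. Nfasc, whose product neurofascin lies at the node of Ranvier and on both its sides, was at 0, 40.2 and 49.6 CPM at day 2 and at 0, 0.108, 14.7, 44.5 and 11.4 in intact nerves, so that 1 library of day 2 had no count and the other 2 overlapped with the highest intact one. A distal library of day 6 was at 72.8 CPM of Nfasc, above every intact library and every library of days 1 and 2.

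Sequences upstream of the members in the RefSeq promoters of mouse GRCm38.p6 were searched for motifs on both strands, because each member was chosen for a high median at day 1 or day 2. A sequence of 250 bases before the start was found for 116 of the 150 members and for 27025 genes in all, eligible or not. The TATA box (TATAAA) had the largest excess, 7.22 percentage points, and was found in 25 of the 116 members (21.55%) and in 14.33% of all genes. The AP-1 site (TGACTCA) was found in 7.76% of members and 5.16% of genes, the CRE (TGACGTCA) in 3.45% and 1.77%, the STAT motif (TTCNNNGAA) in 10.34% and 8.13%, the NF-kB motif in 52.59% and 48.65%, the GC box (GGGCGG) in 39.66% and 35.36% and the E-box (CACGTG) in 7.76% and 6.86%. The CArG box, known from genes of smooth muscle, was searched only after the values had been seen and was found in 4 members (3.45%) and 1.62% of genes. Of the 4, Myom1, Myl9 and Ldb3 are contractile genes. The GC box and the NF-kB motif can overlap. A match is a description of the letters and not a site of binding. The 6 members of highest score with a TATA box follow with the box in capitals, in the order Serpinb2 (chr1:107511173-107511422, plus strand, the first of 2 starts), Cxcl13 (chr5:95956689-95956938, plus), Gjb1 (chrX:101383482-101383731, plus), Mcpt4 (chr14:56062311-56062560, minus), Clec4e (chr6:123289872-123290121, minus) and Cpa3 (chr3:20242182-20242431, minus). The seventh sequence is that of Myl9 (chr2:156775214-156775463, plus) with its CArG box in capitals.
Serpinb2: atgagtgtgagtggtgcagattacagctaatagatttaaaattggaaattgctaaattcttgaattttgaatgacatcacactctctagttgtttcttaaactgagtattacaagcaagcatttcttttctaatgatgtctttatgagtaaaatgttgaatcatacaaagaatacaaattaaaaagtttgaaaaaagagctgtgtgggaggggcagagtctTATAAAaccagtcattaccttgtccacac
Cxcl13: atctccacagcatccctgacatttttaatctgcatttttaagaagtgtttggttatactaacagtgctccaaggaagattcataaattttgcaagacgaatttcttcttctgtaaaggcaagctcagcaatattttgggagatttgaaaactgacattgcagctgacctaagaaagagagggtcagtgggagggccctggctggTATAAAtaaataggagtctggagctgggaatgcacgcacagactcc
Gjb1: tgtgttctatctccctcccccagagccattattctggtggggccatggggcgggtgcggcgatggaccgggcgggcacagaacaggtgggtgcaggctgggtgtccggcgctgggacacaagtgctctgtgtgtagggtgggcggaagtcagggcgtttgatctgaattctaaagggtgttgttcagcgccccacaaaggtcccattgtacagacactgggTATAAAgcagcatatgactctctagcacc
Mcpt4: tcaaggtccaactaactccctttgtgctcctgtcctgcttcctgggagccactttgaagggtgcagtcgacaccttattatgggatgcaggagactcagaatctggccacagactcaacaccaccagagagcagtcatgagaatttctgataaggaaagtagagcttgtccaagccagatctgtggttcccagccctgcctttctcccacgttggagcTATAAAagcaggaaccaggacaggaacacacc
Clec4e: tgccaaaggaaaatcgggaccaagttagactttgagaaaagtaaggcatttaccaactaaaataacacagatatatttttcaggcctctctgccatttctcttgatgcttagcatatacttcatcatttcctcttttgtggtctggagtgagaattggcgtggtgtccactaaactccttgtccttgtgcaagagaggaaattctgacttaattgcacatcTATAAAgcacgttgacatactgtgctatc
Cpa3: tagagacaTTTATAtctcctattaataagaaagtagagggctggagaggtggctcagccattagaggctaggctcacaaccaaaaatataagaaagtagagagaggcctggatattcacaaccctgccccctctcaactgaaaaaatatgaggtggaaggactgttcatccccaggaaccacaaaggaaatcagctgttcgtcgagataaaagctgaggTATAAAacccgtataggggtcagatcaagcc
Myl9: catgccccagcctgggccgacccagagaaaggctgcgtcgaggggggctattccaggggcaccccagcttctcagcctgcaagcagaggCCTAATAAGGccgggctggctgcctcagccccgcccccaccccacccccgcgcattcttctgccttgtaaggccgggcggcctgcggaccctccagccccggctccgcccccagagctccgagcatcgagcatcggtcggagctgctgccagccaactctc
The box nearest to the start began 29 bases before it in Serpinb2, Gjb1 and Clec4e, 31 in Cpa3, 32 in Mcpt4 and 46 in Cxcl13. Cpa3 held 2 matches. By role, the box was found in 7 of 21 matched leukocyte genes, 6 of 15 secreted signals, proteases and receptors, and 1 of 24 genes of translation, RNA, DNA and mitochondria.

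Leukocyte genes formed the largest group beside those of translation and RNA, with 25 members. Plac8 led them, at 146, 514 and 645 CPM at day 1 and 574, 18.2 and 43.6 at day 2. Its intact libraries were at 9.23, 171, 8.91, 1.63 and 8.52 CPM, and the highest of them was above 1 of the 3 libraries of day 1 and 2 of the 3 of day 2. Chil3, a chitinase-like protein of activated macrophages, was at 204, 139 and 253 CPM at day 1 and at 0, 0, 0, 1.34 and 0.0543 in intact nerves, and its libraries of day 1 lay above all intact and later distal ones. Clec4e and Clec4d are neighbouring genes on chromosome 6 for C-type lectin receptors of macrophages and neutrophils. Clec4e was at 52.7, 38.2 and 43.7 CPM at day 1, with 1 later stump inside that range at 40.6. Clec4d was at 39.2, 62.2 and 56.3 CPM at day 1 and did not overlap with the later stumps, at 0 to 37.4. Both were below 1 CPM in every intact library. Slfn4, a schlafen gene of myeloid cells, was at 39.4, 16.3 and 175 CPM at day 1 and 0, 56.7 and 46.96 at day 2, and 1 intact library, at 22.6, lay inside that range. Trem1, S100a8 and S100a9, markers of neutrophils and of inflammatory monocytes, were the members among 8 eligible neutrophil markers. S100a8 was at 22.7, 61.9 and 12.9 CPM at day 1 and 0 to 0.743 in intact nerves, S100a9 at 6.73, 14.2 and 6.06 and 0, and Trem1 at 16.7, 30.8 and 18.5 and 0. Of 14 neutrophil markers in the counts, these 3 are members. The sum of the 11 others was 2.12 to 13.6 CPM in intact nerves, where 7 of the 11 were at 0 in every library, 22.5 to 69.2 at day 1 (median 58.8), 14.8 to 52.6 at day 2 and 52.4 to 102 at day 4, so that days 1 and 4 overlapped. Over days 4 to 10 it was 7.96 to 102 CPM.

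For several leukocyte genes 1 library, day 1 replicate 2, was far above the others. In the 3 libraries of day 1, Ms4a4c was at 84.9, 108 and 853 CPM, all above every intact and later distal library, of which the highest was at 76.5. Ly6c2, a marker of inflammatory monocytes, was at 26.6, 11.96 and 633 CPM at day 1 but had its higher median at day 2, at 18.9, 36.3 and 44.05 CPM. Irg1, the enzyme that makes itaconate in activated macrophages, was at 7.56, 0 and 65.5 CPM at day 1. The third value of day 1 is replicate 2 in each case. Summed over the 25 genes the level was 21.3 to 297 (median 64.6) CPM in intact nerves, 953 to 3378 (median 1777) at day 1, 498 to 1582 (median 820.4) at day 2 and 52 to 563 (median 242) at days 4 to 10. The macrophage marker sum at days 4 to 10, 3162 to 17080.0 CPM, reached above that of day 1, 3459 to 7757. The part of other cells in these levels was not tested.

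Of 5 markers of mast cells 4 were eligible, and all 4, the proteases Mcpt4, Cpa3, Tpsb2 and Cma1, were members. The other marker, Ms4a2, was at 0 in every library of day 1 and reached 4.015 CPM in intact nerves. It had too few early libraries with a count to be eligible. Cpa3, carboxypeptidase A3, was at 124, 10.3 and 94.7 CPM at day 1 and at 2.68, 0.0740 and 24.3 at day 2. In intact nerves it was at 8.54, 2.27, 0.619, 0 and 339.7 CPM, and the fifth of these libraries was higher than any early one. Mcpt4 was at 32.5, 3.22 and 34.1 CPM at day 1 and at 0, 0, 0, 0.116 and 83.4 in intact nerves, with the same library on top. The median of 5 intact libraries leaves that library out, and the sum of the 4 genes was 0.866 to 827 (median 23.05) CPM in intact nerves, 39.5 to 367 (median 272) at day 1 and 0 to 78.2 (median 15.2) at days 4 to 10.

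Contractile smooth muscle genes shared this pattern. Cnn1, calponin 1, was at 143, 87.9 and 281 CPM at day 1 and 42.1, 132 and 11.7 at day 2. Its intact libraries were at 0, 1.41, 1.49, 31.95 and 214 CPM, with the fifth inside the range of day 1. Acta2, smooth muscle actin, was at 1626, 2825 and 3763 CPM at day 1, 1291, 1653 and 557 at day 2 and 454, 335, 391.6, 965 and 2689 in intact nerves. Lmod1, leiomodin 1, was at 51.1, 9.75 and 91.5 CPM at day 1 and 3.54, 0, 3.47, 27.01 and 57.8 in intact nerves, and Tpm2, a tropomyosin, at 287, 190.0 and 472 and 18.4, 20.8, 40.1, 168 and 376. For none of the 22 genes did the peak day lie above all other libraries. Their sum was 809 to 7388 (median 1093) CPM in intact nerves, 4690.1 to 8456 (median 5448) at day 1, 1338 to 3972 (median 2719) at day 2 and 293 to 1711 (median 679) at days 4 to 10. Across the stump time course this sum at day 1 was thus above every library of days 4 to 10, but not above every intact library. Of 8 mural markers 3 are members. The sum of the 5 others was 153.8 to 2057 CPM in intact nerves (median 963.1), 355.9 to 811.2 at day 1 (median 807.3), 105.4 to 663.1 at day 2 and 318.6 to 2018 at days 4 to 10, so that day 1 lay within the ranges of intact nerves and of the later stumps. The part of mural cells in the contractile genes was not tested.

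**Figure D3:**
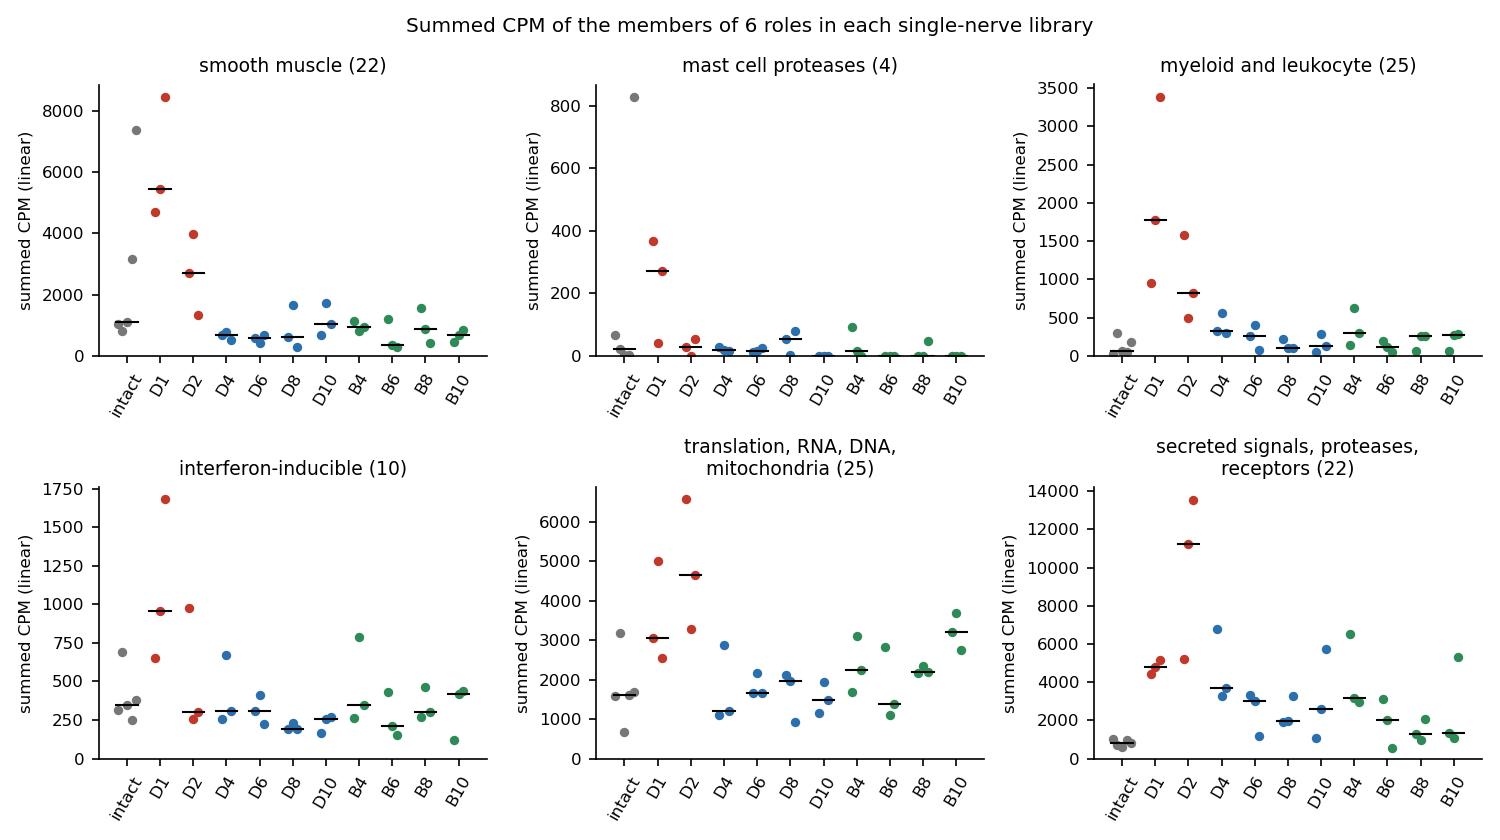
Points are single libraries and bars medians of the summed CPM of the members of 6 roles, on linear axes, for intact nerves, distal stumps (D) and bridges (B) by day. The smooth muscle and mast cell sums have 1 intact library at 7388 and 827 CPM. The sum of secreted signals, proteases and receptors lies above the intact range of 602 to 1021 CPM in all 6 libraries of days 1 and 2. It also does so in the 12 distal libraries of days 4 to 10, at 1057 to 6775 CPM, so that these overlap with the early ones.

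Interferon-inducible genes were 10 members, all with the peak at day 1. Isg15, a ubiquitin-like protein, was at 37.2, 58.4 and 289 CPM at day 1 and 19.1, 58.2, 13.2, 15.1 and 24.3 in intact nerves, so that 1 library of day 1 stood well above the rest. Ifi27l2a was at 202, 259 and 290.1 CPM at day 1 and 716, 37.7 and 70.03 at day 2, with 1 library of day 2 above all of day 1 and 1 of day 4 above them as well, at 426. Mx2, a GTPase against viruses, was at 17.4, 1.81 and 17.98 CPM at day 1 and at 0, 0, 25.4, 6.46 and 0 in intact nerves, 1 of which was above all of day 1. These were 3 members of 25 eligible interferon-stimulated genes in the wider list. The sum of the 10 was 249 to 691 (median 348) CPM in intact nerves and 654 to 1682 (median 959) at day 1.

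Genes of translation, RNA, DNA and mitochondria peaked mostly at day 2. Ncl, nucleolin of the nucleolus, was at 344, 33.4 and 426 CPM at day 1 and 59.7, 674 and 693 at day 2, and at 22.6, 20.2, 243, 322 and 304 in intact nerves, with low values in day 1 replicate 1, day 2 replicate 0 and intact replicates 0 and 1. It was the only member among 39 eligible genes of ribosome biogenesis, a list with a median score of 0.487 against -0.27 over all eligible genes. Nhp2, Nop10, Mrto4 and Ebna1bp2, which take part in ribosome biogenesis as well, are members that were not in that list. Mcm2, of the helicase that unwinds DNA for replication, was at 0, 91.96 and 92.9 CPM at day 2 and 0 to 19.7 in intact nerves, but 1 library of day 10 was at 94.5 CPM. It was the only member among 28 genes of DNA replication, whose median score was 0.43. Pold4, a subunit of a DNA polymerase, is a member that was not in that list. Nme1, a nucleoside diphosphate kinase, was at 211, 439 and 199 CPM at day 1 and 510.4, 298 and 399 at day 2, against 13.6 to 165 in intact nerves and 30.5 to 222 at days 4 to 10, so that day 2 did not overlap with either. Rps2, Rps25, Rpl37, Snrpg, Hspe1 and Cycs belong, with Txn1 and Mif, to the genes known to have near-identical processed pseudogenes. How the counting split such reads was not measured here, and their counts are given as uncertain. Of these 25 genes 7 would still have been chosen without day 1 replicate 1 and day 2 replicate 0, against 19 of the 22 contractile genes, 20 of the 25 leukocyte genes and 17 of the 22 secreted signals, proteases and receptors.

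Small proteins of the S100 and LIM families, with thiol and metal binding proteins, gave 7 members, all with the peak at day 1. Mt2, metallothionein 2, was at 107, 107 and 34.9 CPM at day 1, 37, 21.1 and 46.03 at day 2 and 0.805 to 13.3 in intact nerves. S100a6 was at 482, 846 and 165 CPM at day 1 and at 90.3, 814, 21.3, 113 and 193 in intact nerves, where the second library was within the range of day 1. Only 1 of the 7 would have been chosen without day 1 replicate 1 and day 2 replicate 0. Fosl1, an AP-1 transcription factor, was the only member among 33 eligible immediate early genes, at 12.2, 14.8 and 26.9 CPM at day 1, 3.63, 46.9 and 76.1 at day 2 and 0, 0, 2.48, 0 and 0 in intact nerves. Hoxa10, the other transcription factor of the list, was at 61.9, 80.6 and 35.04 CPM at day 1 and 16.4, 52.4, 21.7, 21.8 and 30.98 in intact nerves, with overlap. Mmrn1 and Flt4, of lymphatic and other endothelium, differed between the libraries of day 1. Mmrn1 was at 229, 14.2 and 111 CPM and Flt4 at 68.9, 3.92 and 53.9 CPM, and both were higher in the fifth intact library, at 331 and 112. Dmkn and Krtdap are neighbouring genes of the epidermis. Dmkn was at 49.1, 67.6 and 3.45 CPM and Krtdap at 26.5, 38.7 and 1.30 CPM at day 1, but intact replicate 1 held 45.7 and 58.1 CPM. No member was found among 18 genes of NF-kB targets and feedback, 24 of mitosis, 17 of repair SCs, 8 of the SC lineage, 4 of keratins, 17 macrophage, 9 fibroblast and 10 endothelial markers. A single gene was a member in each of the lists of acute phase (Saa3), EGF ligands (Hbegf), heat shock (Hspe1), metal stress (Mt2), neuropeptides (Ucn2) and adipocytes (Cfd), and 2 of 29 interleukin and cytokine receptors were (Il1rl1 and Tnfrsf12a). Il2ra, a chain of the interleukin 2 receptor, is a member too but was not in that list. Hspb6 and Hspb7, small heat shock proteins, are members that were not in the heat shock list.

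**Figure D4:**
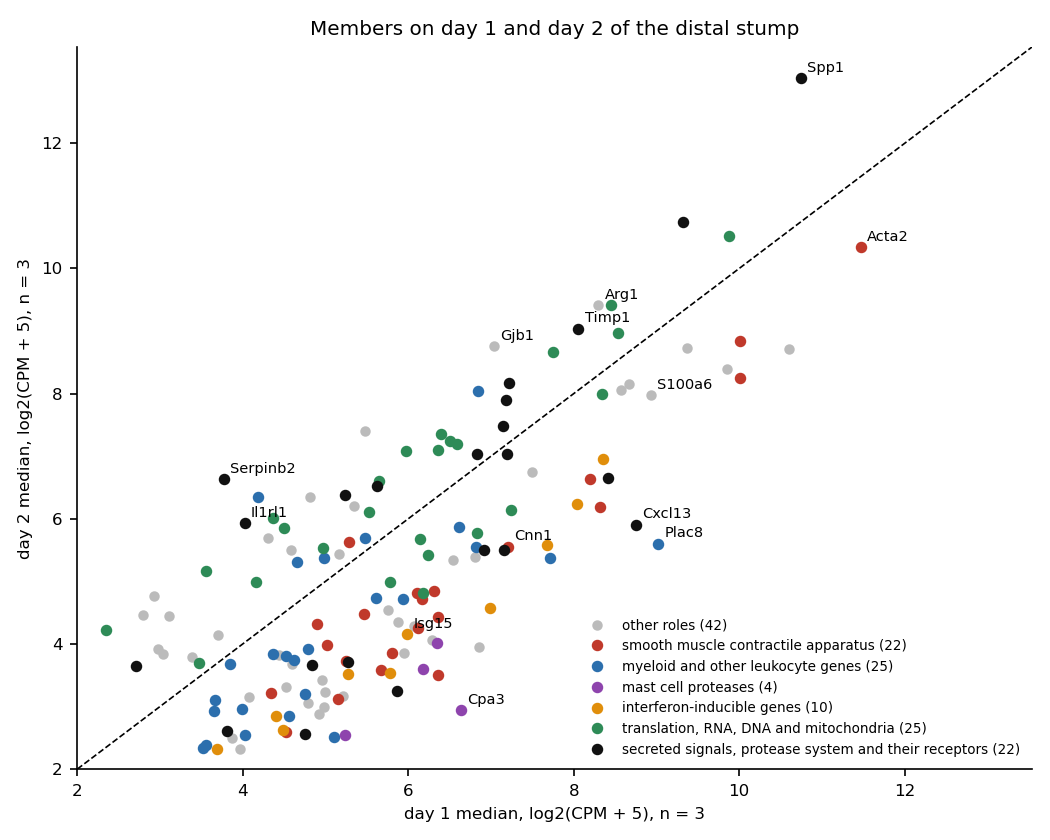
Each point is a member, with its median of 3 libraries at day 1 (horizontal) and day 2 (vertical) in log2(CPM + 5), coloured by role, and the dashed line marks equal medians. Of the 150 members 99 lie below the line, among them 21 of the 22 smooth muscle genes, and 51 above it, among them Serpinb2, Gjb1 and 18 of the 25 genes of translation, RNA, DNA and mitochondria.

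Some members lie side by side. Of 147 members with 1 position in the mouse annotation (NCBIM37, mm9), 40 had another member within 1000000 bases. The share over all eligible genes was not counted, so nothing is read from this number. Some of the 40 are far apart, such as Hsf2bp and Cyp4f14 with starts 960302 bases apart, and others are clusters of related genes. Examples are Cxcl5 (chr5:91188325-91190651), Ppbp (chr5:91197544-91199086) and Pf4 (chr5:91201461-91202407), S100a4 (chr3:90407692-90409967), S100a6 (chr3:90416816-90418336), S100a8 (chr3:90472993-90473956) and S100a9 (chr3:90496554-90499643), Clec4d (chr6:123212125-123225286) and Clec4e (chr6:123231807-123239889), and Cma1 (chr14:56560290-56563498) and Mcpt4 (chr14:56678581-56681147). E030013I19Rik (chr2:12222574-12232927) overlaps Itga8 (chr2:12028259-12223547) on the other strand, and the libraries do not keep the strand, so reads in the overlap cannot be told apart.

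The pooled nerves of day 6 had no part in the choice of members and show where these genes stood once the early phase was over. Of the 150 members, 131 passed the filter on low counts, and 19, among them Serpinb2, Trem1, S100a8, S100a9 and Ppbp, did not. Against intact nerves, 7 members were higher in dSCs (4.67% of the 150) and 4 lower (2.67%) at an adjusted p under 0.05, with edgeR's quasi-likelihood test. Over all 13751 genes tested, 2.63% were called higher and 2.69% lower. At an unadjusted p under 0.05 there were 37 members (24.7% of the 150), against 16.5% of all genes. Shares of the 150, here and below, count members not tested as not called, whereas shares over all genes are of genes tested. Of the 131 members tested, 8.4% were called at the adjusted p, against 5.32% of all genes tested. When libraries of the same pool number were treated as pairs (a replicate block), only Lgals3 of the members was still called, while the calls over all genes went from 732 to 287, 122 higher and 165 lower.

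Arg1, Tnfrsf12a, Lgals3, Cstb, Ncl, Rps2 and Cxcl5 were still above intact nerves at day 6, but not equally stable. Under the alternative settings, Lgals3 stayed called in 14 of 14, Ncl in 13 of 14 and Tnfrsf12a in 11 of 14. Cxcl5 did so in 8 of 13, Cstb in 7 of 14, Rps2 in 6 of 14 and Arg1 in 4 of 13. Arg1 was at 26.9, 11.7, 18.5 and 15.7 CPM in the distal pools and 1.34, 1.05, 0 and 0 in the intact pools, a log2 difference of 5.03 ± 1.23 (SE, n = 4 per group, edgeR adjusted p = 0.0325). Lgals3, galectin 3, was at 834, 534, 916 and 574 CPM and 216, 280.2, 177 and 220.3, 3.43-fold higher with no overlap (log2 1.78 ± 0.27, edgeR adjusted p = 0.00254). Tnfrsf12a was at 63.8, 21.01, 106 and 59.01 CPM and 21.2, 17.3, 19.2 and 18.98, with the lowest distal pool inside the intact range (log2 1.79 ± 0.38, edgeR adjusted p = 0.0174). Ncl was at 461, 345, 329 and 330.5 CPM and 184, 185, 175 and 159 (log2 1.16 ± 0.22, edgeR adjusted p = 0.00926). Cxcl5 had 794 counts in the 4 distal pools together and 1 in the intact pools, a ratio of 779 with a 95% counting interval of 139 to 30800. Cstb, an inhibitor of cathepsins, and Rps2 were 2.47-fold and 2.13-fold higher.

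Lower than in intact nerves were Hbegf, Nfasc, Myl9 and Cyp4f14. Hbegf was at 40.6, 20.8, 52.98 and 30.6 CPM in the distal pools and 131, 187, 135 and 65.7 in the intact pools, without overlap, so that it was 3.36-fold lower (log2 -1.75 ± 0.35, edgeR adjusted p = 0.0128). Nfasc was at 26.7, 13.3, 14.6 and 12.4 CPM against 229, 208, 260.1 and 102, 11.1-fold lower (log2 -3.47 ± 0.89, edgeR adjusted p = 0.0392). Cyp4f14, which breaks down leukotrienes and other lipids, had 623 counts in the intact pools and 0 in the distal ones, which is at least 212-fold lower. In the single nerves Cyp4f14 was at 5.08, 13.3 and 9.60 CPM at day 1 and 0 in all 12 later distal libraries, but at 0 also in 4 of the 5 intact ones. Pooled and single intact nerves differ in the same way for Nfasc, at 102 to 260.1 and 0 to 44.5 CPM, and for Gjb1, at 33.7 to 102 and 7.43 to 49.6. Most pooled intact libraries were higher for Hbegf too, with overlap. In single nerves Hbegf had 671, 732 and 2033 counts in the stumps of day 6. Intact single nerves had 731, 622, 316, 1342 and 1154, so that stump and intact nerve overlapped. Pooled and single nerves are separate experiments, and these differences were not tested. Leaving out a pool changed the count of 11 calls to 4, 3, 3 and 16 without intact replicates 1, 2, 4 and 5, and to 6, 5, 7 and 4 without distal replicates 1, 2, 3 and 5. Intact replicate 5 carried 1269 CPM of mast cell proteases and 1050 of the leukocyte members, against 0.105 to 73.1 and 8.52 to 173 in the other intact pools.

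Bridge and distal SCs were compared at day 6 because the study asks what sets cells in the wound apart from those of the stump. Between them, 7 members were higher in the bridge (4.67% of the 150; 2.31% of all genes tested) and 8 lower (5.33%; 3.11%), with edgeR at an adjusted p under 0.05. Of the 131 members tested, 11.5% were called, against 5.43% of all genes tested. At an unadjusted p under 0.05 there were 43 members (28.7% of the 150), against 21.5% of all genes. The higher ones were Hbegf, Tagln, S100a4, Tnfrsf12a, Rps2, Cycs and Mif, and the lower ones Cxcl13, Mmrn1, Cxcl5, Cfd, Myh11, Serpina3c, Nfasc and Lgals3. Under the pool block, Hbegf, Rps2 and Cycs remained higher and Cxcl13, Myh11 and Lgals3 lower, among 236 genes called in place of 746.

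Hbegf had the lowest adjusted p of the members. Its bridge pools were at 214, 388, 345 and 348 CPM, against 40.6, 20.8, 52.98 and 30.6 in the distal pools and 131, 187, 135 and 65.7 in the intact ones, and the bridge overlapped with neither. The bridge was 8.59-fold above the stump (log2 3.10 ± 0.37, edgeR adjusted p = 0.00161). Tnfrsf12a was at 123, 220.0, 181 and 202 CPM in the bridge, 2.81-fold above the stump (log2 1.49 ± 0.38, edgeR adjusted p = 0.0378). Rps2 was 2.53-fold higher (log2 1.34 ± 0.28, edgeR adjusted p = 0.0191) and Cycs, cytochrome c, 2.43-fold higher (log2 1.28 ± 0.30, edgeR adjusted p = 0.0268). Mif, a cytokine of macrophages and many other cells, was 2.18-fold higher. Tagln, transgelin, was at 87.04, 209, 204 and 491 CPM in the bridge and 32.1, 66.5, 56.1 and 29.5 in the stump, 5.21-fold higher, although 1 bridge pool was far above the others.

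Both chemokines called were at 0 in the bridge pools. Cxcl13 had 858 counts in the distal pools and 0 in the bridge, at least 341-fold lower, and Cxcl5 had 794 and 0, at least 316-fold lower. Mmrn1, of platelets and lymphatic endothelium, and Cfd, adipsin, were at 0 in the bridge and at least 328-fold and 74.4-fold lower, and for Cfd 1 of the 4 distal pools was at 0 too. Myh11, smooth muscle myosin, had 1 count in the bridge and 441 in the stump, a ratio of 526 with a counting interval of 94.0 to 20800, and Serpina3c 1 and 259, a ratio of 309 (55.0 to 12300). Nfasc was 20.8-fold lower in the bridge (log2 -4.38 ± 0.96, edgeR adjusted p = 0.0210). Lgals3 was at 203, 289, 415 and 318 CPM in the bridge and 834, 534, 916 and 574 in the stump, 2.43-fold lower without overlap (log2 -1.28 ± 0.27, edgeR adjusted p = 0.0182). The macrophage marker sum was 2726 to 9739 CPM in the bridge pools and 11040.0 to 17450.0 in the distal pools, and its part in the lower values was not tested. Leaving out a pool gave 18, 8, 9 and 8 calls without bridge replicates 1, 2, 3 and 5 and 5, 9, 11 and 7 without distal replicates 1, 2, 3 and 5. The folds of genes at 0 or 1 count in the bridge pools cover counting error only. In the single nerves of day 6, Myh11 had 9, 24 and 386 counts in the bridges and 504, 125 and 1232 in the stumps. Cxcl13 had 41, 0 and 1 against 111, 0 and 11, and Serpina3c 33, 7 and 0 against 24, 0 and 0. All of these overlapped between bridge and stump. Cxcl5, at 24, 0 and 0 counts against 411, 223 and 58, did not.

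**Figure D5:**
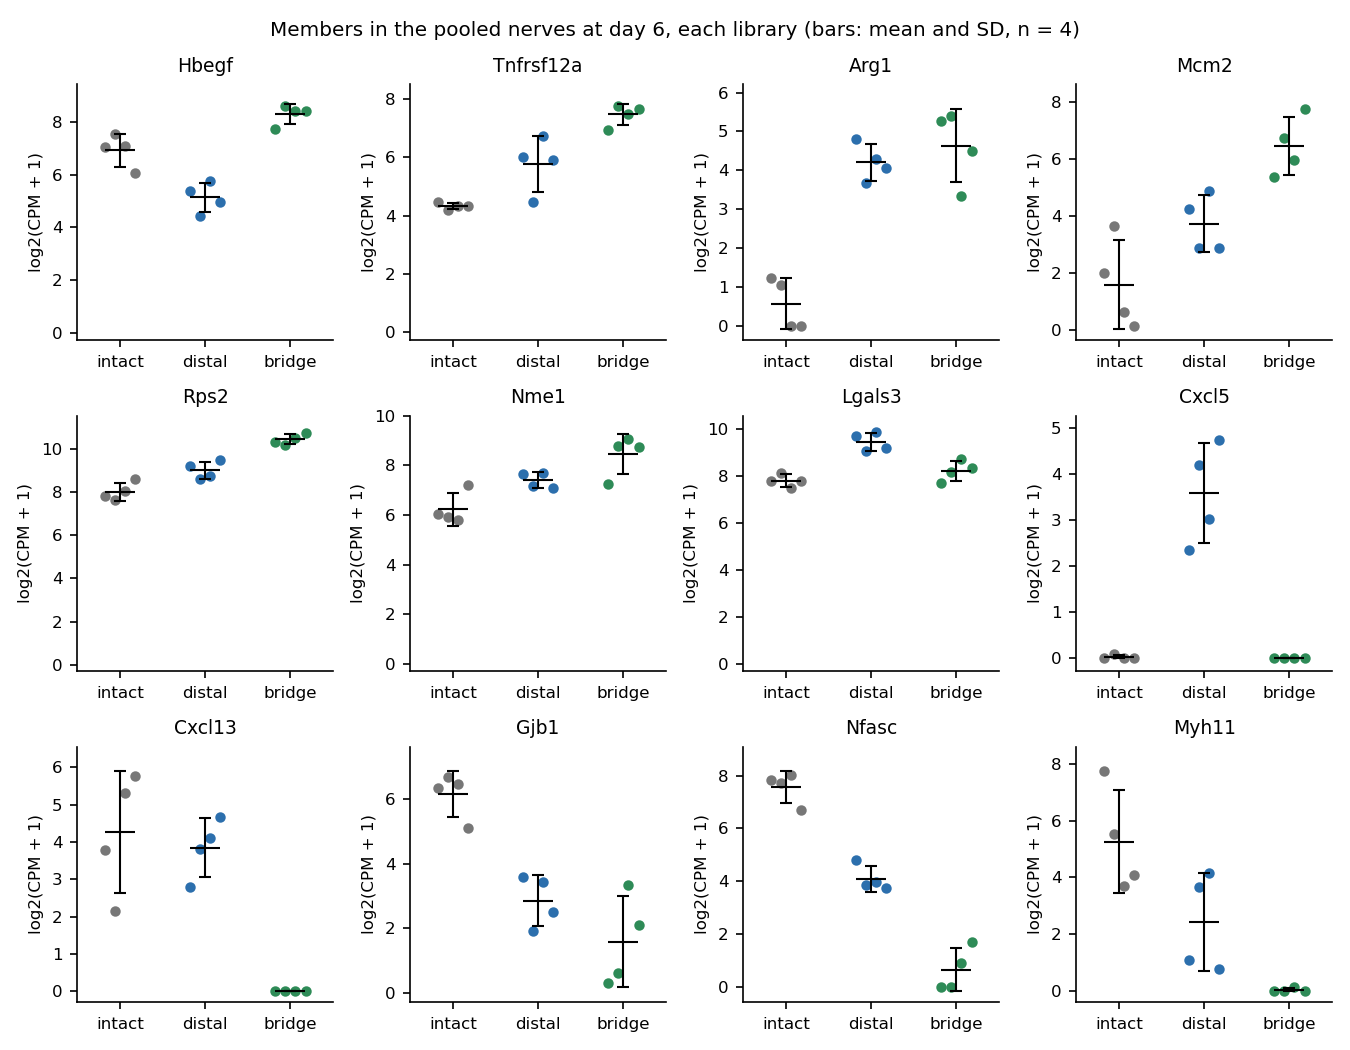
Points are the 4 pooled libraries each of intact nerve, distal stump and bridge at day 6 for 12 members, in log2(CPM + 1), with bars for the mean and SD. Hbegf and Tnfrsf12a are highest in the bridge pools, Lgals3 and Cxcl5 in the distal pools, and Gjb1 and Nfasc in the intact pools, while Cxcl13 is at 0 in all 4 bridge pools.

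The bridge differed from intact nerves in 36 members, 17 higher (11.3% of the 150; 7.24% of all genes tested) and 19 lower (12.7%; 7.46%). At an unadjusted p under 0.05 there were 51 (34.0%; 28.6%). Of the 131 members tested, 27.5% were called at the adjusted p, against 14.7% of all genes tested. This comparison shares its libraries with both others and adds no independent evidence to them. Of the 17 higher members, 9 were genes of translation, RNA, DNA and mitochondria. Rps2 was 5.37-fold higher (log2 2.43 ± 0.29, edgeR adjusted p = 0.000296), Nme1 4.83-fold, Ppa1 4.48-fold, Nhp2 4.14-fold, Rps25 2.98-fold, Ncl 2.81-fold, Hspe1 2.52-fold and Cycs 2.19-fold. Mcm2 was at 40.6, 106, 60.9 and 213 CPM in the bridge and 2.93, 11.4, 0.530 and 0.0818 in intact nerves (log2 4.88 ± 1.14, edgeR adjusted p = 0.0116), and Tnfrsf12a was 9.73-fold higher (log2 3.28 ± 0.40, edgeR adjusted p = 0.000326). The others were Arg1, Hbegf, Mif, Txn1, Cstb, S100a4 and S100a10. Lower were Gjb1, at 0.238, 0.521, 9.18 and 3.27 CPM against 80.99, 102, 88.1 and 33.7 (log2 -4.49 ± 1.00, edgeR adjusted p = 0.00901), and Nfasc, at 0, 0, 0.874 and 2.25 against 229, 208, 260.1 and 102 (log2 -7.85 ± 1.11, edgeR adjusted p = 0.000655). Of the 17 others, Cxcl13, Cma1, Mmrn1, Ppl, Cfd, Cyp4f14, Itga8, Tuba8 and Hspb7 were at 0 counts in the bridge, at least 561-, 1350-, 307-, 340-, 448-, 253-, 208-, 189- and 85.1-fold lower in this order, and Myh11, Cpa3, Mcpt4, Saa3, Chil3 and Serpina3c had 1 to 3 counts there. Tpsb2 and Lmod1 complete them. Of these 19, the mast cell genes, Saa3 and Chil3 had most of their intact counts in the fifth pool. With the pool block 10 were higher and 10 lower, among 968 genes called in place of 2022.

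Over all members with a count, the median log2 difference of mean CPM (5 CPM added) was -0.20 between dSCs and iSCs, against -0.04 over all genes, but 0.14 without intact replicate 5, and for bSCs against iSCs it was -0.22 and then 0.05. Between bSCs and dSCs it was -0.08, against -0.02 over all genes. The median of the list was therefore not a stable description of day 6.

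In the bridge of single nerves most members stayed well below their early level. The median share of the early peak was 15.7%, 6.69%, 12.4% and 2.48% in the bridge at days 4, 6, 8 and 10, and 10.8%, 9.93%, 11.9% and 13.8% in the distal stump. Of the 150 members, 11, 4, 11 and 20 had a bridge median of at least 50% of the peak. The bridge median was above the distal one in 79, 32, 76 and 55 of the 150 members (87 at day 4 without replicate 1). Over all eligible genes this held for 42.8%, 41.9%, 43.9% and 44.0%. The members were chosen for a high early peak and low distal medians at these days. Nothing is therefore read from these differences or from the shares of the peak. There were exceptions to the low levels in the bridge. In 2 members each at days 4, 6 and 10, and in 0 at day 8, the bridge median was above the early peak. At days 6 and 10 these were Hbegf and Mcm2, with Mcm2 at 93.0 and 132.4 CPM against 91.96. At day 4, with replicate 1 included, they were Slc16a3, at 65.0 against 38.1 CPM, and S100a10, at 672 against 658. Without replicate 1 the count at day 4 was 2 as well. Hbegf had bridge medians of 15.8, 189, 74.3 and 260.3 CPM at days 4, 6, 8 and 10. Its early peak was 174 CPM. Its libraries at day 4 were at 140.0, 15.8 and 10.8 CPM and at day 10 at 260.3, 157 and 536. Arg1 in the bridge was at 317, 6.29 and 600.0 CPM at day 4 and 0, 8.74 and 218 at day 10, so that a bridge of each of these days lay within the range of day 1 stumps. The 6.29 CPM of day 4 is replicate 1, which nearly equals its distal stump, and both other bridges of day 4 held at least 317 CPM. For Hbegf the same library was at 15.8 CPM, between the other two. Without it, the median share of the early peak at day 4 was 17.3% in place of 15.7%, 16 members in place of 11 had at least 50% of the peak, and the Hbegf median was 75.4 CPM.

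Between the bridges of day 10 and day 4 edgeR called 0 of the 127 members tested and 0.0% of all 13635 genes, and 0 members as well without day 4 replicate 1. At an unadjusted p under 0.05 there were 11 of the 127 members tested and 1054 of the 13635 genes (7.73%). DESeq2 called 4 members, Dmkn, Lgals3, Ly6a and Ptgis, each lower at day 10 (3.15% of the members tested). Over all genes it called 344 (2.52%), 107 higher and 237 lower. Without day 4 replicate 1 DESeq2 called 2 members, Dmkn and Ptgis, and 273 genes (1.92%). In simulated counts of this comparison edgeR recovered 0 of 200 genes changed 4-fold and DESeq2 43, with 73 false calls, so that edgeR could not detect changes of this size at this replication. Without day 4 replicate 1 the median log2 difference over the members moved from -0.26 to 0.01, against 0.03 and 0.08 over all genes.

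The choice of members depended on the setting. Replacing the median by the mean kept 74 of the 150, a pseudocount of 1 or 20 CPM kept 100 or 105, and scaling by TMM kept 125. Without 1 library at a time, 80, 95 and 82 remained for day 1 replicates 0, 1 and 2, and 138, 62 and 66 for day 2 replicates 0, 3 and 4.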

How the data were processed

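The members, roles and gene lists were chosen with earlier results of these data known. Per the labels and the study's methods, the authors sorted tdTomato+ cells, made Smart-seq2 and Nextera XT libraries without strand from polyadenylated RNA, aligned the reads to mm9 with TopHat2 2.0.11, took counts of each gene from HTSeq, and deposited these raw counts without normalization. HTSeq's class of reads on no feature held 52.53 to 60.53% of unique reads. Rows of the 92 spike-ins and of HTSeq's summary were left out, and the lanes of 8 libraries given as 2 lanes were summed. All 47 mouse libraries were read, and 6 rat libraries were not analysed here. Some genes of the SC lineage and myelin lists are not reported here, and their lists were summed and counted without them. CPM used the sum of counts on genes.

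Groups came from the labels. Pooled groups and bridge days 10 and 4 were compared with edgeR 4.0.16 (R 4.3.3) over all genes kept by filterByExpr, with quasi-likelihood tests and Benjamini-Hochberg adjustment at 0.05, all groups of the experiment sharing 1 estimate of the spread. Intervals and floors (3 counts over a group where all libraries are at 0) cover counting error only. The labels number the pools across tissues, so equal numbers pair the pooled libraries. The mean correlation of deviations was -0.01 for equal numbers and 0.0045 for unequal ones. Bridge numbers across days are only names. Alternatives were DESeq2 1.42.0, other filters, the replicate block and leaving out each library, and the fits were tested on simulated counts. The genes named were the 20 of highest score, members of the function lists, those past the threshold with the largest differences and those next to the score limit. Others were named after their values were seen.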

Additional observations from a re-analysis of the deposited data

Results flagged for a closer look

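In 53 groups of 4 pooled libraries over 20 members, 7 libraries stood apart from the other 3 of their group on the log2(CPM + 5) scale, and by the nominal rate of this limit chance sets apart about 1 in 20 groups. In 3 of the 7 the other libraries of the group were at 0, so that any count stood apart. Tagln was at 378 CPM in intact replicate 1 against 99.4 to 105 in the other intact pools, and S100a4 was at 377 CPM in bridge replicate 3 against 131 to 140.2. Nme1 was at 149 CPM in intact replicate 5 against 54.1 to 64.3. Cpa3 was at 4.76 CPM in distal replicate 5 against 0 to 0.221, and at 0.262 CPM in bridge replicate 3 against 0. The remaining libraries held 1 count of a gene that was at 0 elsewhere in the group, Cxcl5 at 0.0526 CPM in intact replicate 2 and Myh11 at 0.0874 CPM in bridge replicate 3. The causes were not tested.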

How the results depend on the processing

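The number of members called between bridge and distal pools was 15 with edgeR (746 of all genes), 30 with DESeq2 (1939), 6 with the replicate block (236) and 5 to 18 without 1 library. Between distal and intact pools it was 11 (732), then 19 with DESeq2 (1393), 1 with the replicate block (287) and 3 to 16 without 1 library. Between bridge and intact pools it was 36 (2022), then 45 with DESeq2 (3114), 20 with the replicate block (968), 16 (1639) with a filter of 100 counts in 85% of libraries, which tests fewer genes, and 28 to 35 without 1 library. Between bridge days 10 and 4 it was 0 with edgeR, also without 1 library, 4 with DESeq2 (344) and 2 with DESeq2 without day 4 replicate 1 (273), which was chosen after seeing the data. Of the membership of 150 genes, 74 remained with the mean in place of the median, 93 without day 1 replicate 1 and day 2 replicate 0 together (chosen after seeing the data) and 62 to 138 without 1 early library. Apart from the fits with fewer libraries or fewer genes, the cause was not tested. No call of a member changed direction under any alternative run. Over the called members and alternatives, 133 values stayed past the threshold and 67 did not for bridge against distal, 93 and 57 for distal against intact, and 394 and 77 for bridge against intact. Hbegf between bridge and distal pools and Lgals3 between distal and intact pools passed the threshold in all 14 alternatives. Others were less stable. Between distal and intact pools, Arg1 passed in 4 of 13 and Nfasc and Cyp4f14 each in 5 of 13. Between bridge and distal pools, Cfd passed in 4 of 12, S100a4 in 4 of 14 and Mif in 5 of 14. In simulated counts edgeR recovered 42 of 200 genes changed 4-fold between bridge and distal pools and 35 of 200 between distal and intact pools, so that many changes of this size would be missed at this replication. The comparison of rat SCs was not run.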

Other observations

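Several members not described so far had values that depend on the library in a like way. Ccl24, a chemokine for eosinophils, was at 35.4, 155 and 44.1 CPM at day 1, 87.2, 20.7 and 123 at day 2, 0.259, 22.2, 0.186, 4.89 and 12.8 in intact nerves and 0.383 to 42.04 at days 4 to 10. Prg4, or lubricin, was at 231, 39.3 and 115 CPM at day 1 and 0.604, 11.7, 58.4, 14.1 and 14.1 in intact nerves, where the third library was above the lowest of day 1. P2ry2, a receptor for ATP and UTP, was at 32.6, 20.5 and 44.7 CPM at day 1 and 16.1, 78.3 and 83.5 at day 2, against 21.9, 0, 12.3, 35.5 and 12.8 in intact nerves. The glucose carrier Slc2a6 was at 10.6, 26.03 and 39.04 CPM at day 1, above all intact libraries, at 0 to 5.15, but 1 library of day 4 reached 16.5. Ly6a, the stem cell antigen Sca-1, was given no role and had medians of 1550.1 CPM at day 1, 416 at day 2 and 436 in intact nerves. Others rested on few libraries. Stat4 was at 6.42, 0 and 6.99 CPM at day 1 and Il7 at 9.01, 0 and 12.2, with 1 library of each at 0.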
